A study of Mus musculus with 2 samples.

Results

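Cluster 14 is 1 of 3 clusters that the authors annotated as the first meiotic division (MI) in single-cell RNA-seq of mouse testicular germ cells. Its members are the wild-type cells with the annotation MI and the deposited cluster number 14. They were 377 of the 8420 annotated wild-type cells, or 4.48% (95% exact binomial interval for counting error 4.05 to 4.94), out of 17253 annotated cells in the series. Among the 2344 wild-type MI cells they made up 16.1% (14.6 to 17.6), and the rest were 914 cells of cluster 6 and 1053 cells of cluster 8.

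The series holds 1 library of wild-type (WT) germ cells and 1 library labelled Zfp541-/-, a genotype without the zinc finger protein ZFP541. Both came from testis of adult C57BL/6 mice. Per the labels' protocols, dissociated testis cells were sorted for tetraploid germ cells and loaded on the 10x Chromium system for 3' end counting, although the sample titles read whole testis. Cluster 14 had 0 cells in the library labelled Zfp541-/-, so every comparison is made within the wild-type library. The cells of 1 library are not replicates, and the clusters were made from the same genes that are compared. All values are therefore descriptions with no test, and every interval is a 95% interval that covers counting error only.

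The first meiotic division separates homologous chromosomes, which have been held together by crossovers since pachytene. At the end of diplotene, cyclin-dependent kinase 1 bound to A- and B-type cyclins, with Aurora and Polo-like kinases, drives chromosome condensation, disassembly of the synaptonemal complex and assembly of the spindle. The anaphase-promoting complex (APC/C) with its activator CDC20 then degrades cyclin B and securin, and the cells go on through a brief second division to haploid round spermatids.

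Annotated wild-type cells of cluster 14 had a median of 12941 unique molecular identifiers (UMIs) and 3422 genes, with 0.870% mitochondrial UMIs. The median was 14074.5 UMIs in cluster 6, 13569 in cluster 8 and 14817 in RS.1, the earliest round spermatid stage. It was 11558.5 in cluster 3 and 12829 in cluster 9, both annotated as diplotene. The upper quartile was 14347 UMIs in cluster 14 and 15674 in cluster 6, but 23692 in cluster 9 and 26062 in RS.1, so those groups also held much deeper cells. The libraries shared 42 barcodes, of which 1 belonged to a cluster 14 cell, and without the shared barcodes each of the 10 counts of 2-fold different genes stayed within 1.5 times of its value.

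On the authors' pseudotime, cluster 14 came before the other MI clusters and after most diplotene cells. Its median score was -4992 (quartiles -5276 and -4698), against -2885.5 in cluster 6, -2254 in cluster 8 and -1299 in RS.1. The diplotene medians were -6638.5 in cluster 3 and -5574 in cluster 9. Of all pairs of 1 cluster 14 cell and 1 cell of another cluster, the cluster 14 cell was the later in 99.0% of pairs with cluster 3 and in 60.6% with cluster 9. It was the later in 0.109% of pairs with cluster 6, in 1.20% with cluster 8 and in 0 with RS.1. The interval of scores that cluster 14 spans held 948 cells of these stages, of which 377 were its own, 363 were of diplotene cluster 9, 140 of diplotene cluster 3, 60 of MI cluster 8 and 8 of MI cluster 6. The score is an order with no unit, made by the authors from expression, so it is not independent of the gene levels below.

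**Figure D1:**
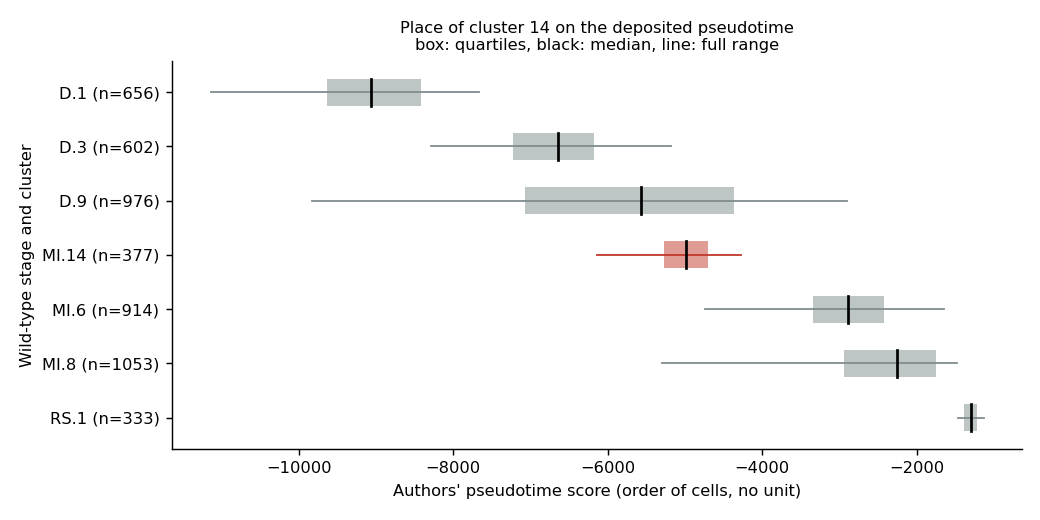
Each row is a wild-type cluster from diplotene (D), MI or RS.1, and the x axis is the authors' pseudotime score (an order with no unit). The box of cluster 14 (red, 377 cells) lies wholly left of the boxes of clusters 6 and 8, inside that of diplotene cluster 9 and right of that of diplotene cluster 3.

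The label was checked against 5 genes of the division: Ccna1, Ccnb1, Aurka, Plk1 and Cdc20. All 5 were detected in cluster 14, all 5 were higher there than in diplotene cluster 3, and all 5 were lower than in MI clusters 6 and 8. Levels are given as CPM, the UMIs of a gene summed over a cluster's cells and scaled to a cluster total of 1000000. Ccnb1 (chr13:100778650-100786570, minus strand), which encodes cyclin B1, stood at 39.7 CPM (34.5 to 45.6; 204 UMIs) in cluster 14, against 9.06 in diplotene cluster 3, 167 in cluster 6 and 141 in cluster 8. Plk1 (chr7:122159439-122169873, plus strand), the Polo-like kinase of spindle and centrosome assembly, stood at 51.2 CPM (45.2 to 57.8), against 17.4 in diplotene cluster 3, 110 in cluster 6 and 70.0 in cluster 8. Both genes were thus above diplotene cluster 3 and below the larger MI clusters, with Plk1 closer to cluster 8 than to cluster 6. In diplotene cluster 9, Ccnb1 was at 21.3 CPM and Plk1 at 13.0.

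Ccna1 (chr3:55045469-55055501, minus strand), the germ-line cyclin A1 that male meiosis requires, was at 202 CPM (190 to 215) in cluster 14, against 136 in diplotene cluster 3, 374 in cluster 6 and 463 in cluster 8. Aurka (chr2:172356190-172370535, minus strand), the spindle pole kinase, was at 219 CPM (206 to 232), against 163, 344 and 336 in the same order. Cdc20 (chr4:118432901-118437352, minus strand) set the cluster apart least, with 173 CPM (162 to 185) in cluster 14 and 162, 217 and 250 in the same order. The counting interval of its log2 ratio to diplotene cluster 3, 0.10 (-0.03 to 0.23), includes 0. Among the 19 wild-type clusters of at least 50 cells, cluster 14 ranked the third highest for Ccna1 and Plk1, the fourth for Aurka, the sixth for Ccnb1 and the eleventh for Cdc20, whose highest level was in early pachytene cluster 12. The marker levels thus place cluster 14 below the other cells with its annotation, and it is called by its number in what follows. Against RS.1 the markers went both ways. RS.1 had 194 CPM of Ccna1, 50.3 of Plk1, 119 of Cdc20, 229 of Aurka and 85.7 of Ccnb1. The 5 markers summed to 685 CPM in cluster 14 and 679 in RS.1.

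**Figure D2:**
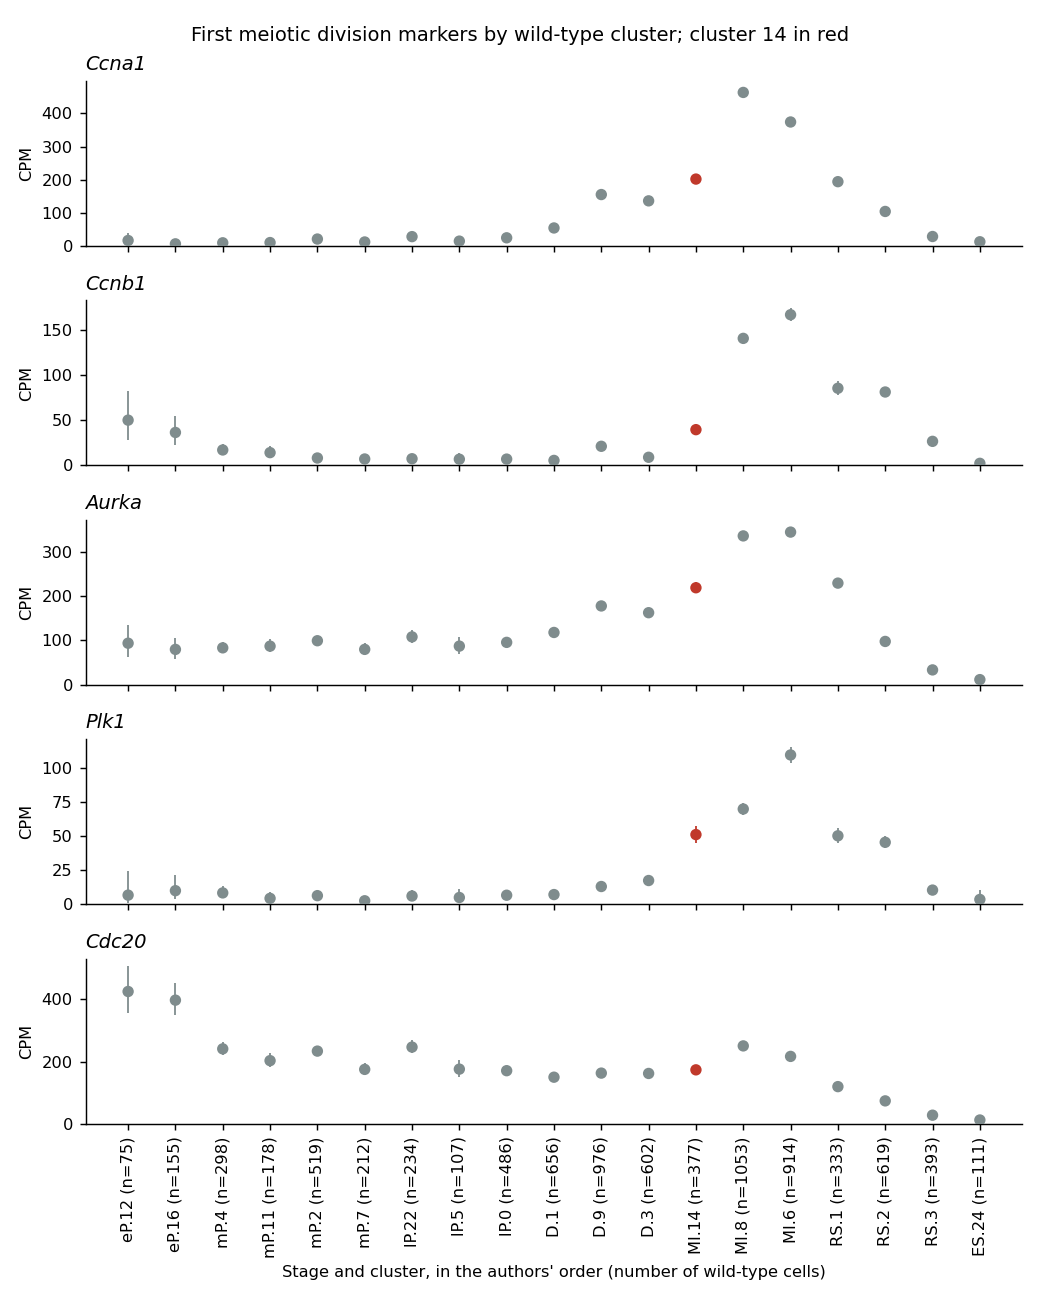
Levels of the 5 MI markers (y axes, CPM, each from 0) in the 19 wild-type clusters of at least 50 cells, in the authors' order from early pachytene (eP) to elongated spermatids (ES), with exact Poisson intervals as bars. Cluster 14 (red) lies below MI.8 and MI.6 and above D.3 in all 5 panels, from 39.7 CPM for Ccnb1 to 219 CPM for Aurka.

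Single cells gave the same order. Ccnb1 had at least 1 UMI in 34.0% of cluster 14 cells (29.2 to 39.0), in 9.97% of diplotene cluster 3 and in 83.2% of cluster 6. After every cell was thinned to 3000 UMIs, these shares were 13.5%, 1.83% and 40.5%. Plk1 was found in 49.3% of cluster 14 cells, or 15.4% after thinning, against 78.2% and 28.4% in cluster 6. Ccna1 was found in 94.7% of cluster 14 cells, or 48.5% after thinning. Cells before pachytene, from spermatogonia to zygotene, served as a background for Ccna1. They had a median of 2227 UMIs against 12941 in cluster 14, and 1.64% of the 122 such cells had a Ccna1 UMI, or 2.86% of the 35 left after thinning. Those cells express Ccnb1 and Plk1 themselves and give no background for them. Thinned cells of cluster 14 showed a mean of 1.70 of the 5 markers each, against 1.11 in diplotene cluster 3, 2.47 in cluster 6 and 2.40 in cluster 8. In RS.1 the mean was 1.76.

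Against MI cluster 6, cluster 14 differed by at least 2-fold in few of the 6422 genes that reached 10 CPM in either. In all, 161 genes (2.51% of those tested) were higher in cluster 14 and 68 (1.06%) were lower. The 10 lowest ratios at 100 CPM or more included Ccnb1, Spc25, Plk1 and Ube2c, and the 10 highest included Ccp110, Piwil1 and Tex101. The median log2 ratio over all genes was 0.11, and 90% of ratios spanned 1.36 log2 units. With median-of-ratios scaling the log2 ratios shift by -0.15 and the counts become 89 higher and 108 lower, so the balance of higher and lower genes here depends on the scaling.

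The largest difference to cluster 6 at 100 CPM or more was in A930018P22Rik (chr2:104122769-104124749, plus strand), a gene whose function is not described here. It was at 4.67 CPM in diplotene cluster 3, 31.1 (26.5 to 36.4) in cluster 14 and 246 in cluster 6, which gives -2.97 in log2 units (-3.22 to -2.75). The ratio was -3.65 without the tenth of each cluster's cells with the highest doublet scores. Ccnb1 followed with -2.07 (-2.29 to -1.87). Spc25, a subunit of the NDC80 complex that ties kinetochores to microtubules, had 26.5 CPM in cluster 14 against 101, and -1.93 (-2.20 to -1.68). Plk1 had -1.10 (-1.29 to -0.91). Ube2c, the ubiquitin-conjugating enzyme of the APC/C, had 49.1 CPM against 102, and -1.05 (-1.26 to -0.86). Cdk1, the kinase that cyclin B1 activates, had 83.9 CPM against 171, and -1.02 (-1.18 to -0.88).

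Other genes among the 10 lowest were Hapln2 with a log2 ratio of -1.46, Rfx8, of the RFX transcription factor family, with -1.27, and Clasrp, an SR-related splicing protein, with -1.10. Bcl7c, a subunit of SWI/SNF chromatin remodelling complexes, had -1.03, and Rgcc, a regulator of the cell cycle, had -1.02. Most of these genes were already above diplotene cluster 3 in cluster 14. Spc25 stood 1.30 log2 units above that cluster, Ube2c 1.00 and Cdk1 0.87.

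The promoters of 4 of these division genes are shown because these genes were lower together in cluster 14 than in cluster 6. Each sequence is the 250 bases before the RefSeq gene start in GRCm38.p6, 5' to 3' on the strand of the gene. Capitals mark every CCAAT, the motif bound by NF-Y, which on the opposite strand reads ATTGG. They also mark every TTTGAA, a core of the homology region known from cell cycle genes, which on the opposite strand reads TTCAAA. The Ube2c promoter holds 1 pair of CCAAT matches that overlap on opposite strands, and its single TTTGAA is on the other strand.
Ccnb1, chr13:100786487-100786736, minus strand: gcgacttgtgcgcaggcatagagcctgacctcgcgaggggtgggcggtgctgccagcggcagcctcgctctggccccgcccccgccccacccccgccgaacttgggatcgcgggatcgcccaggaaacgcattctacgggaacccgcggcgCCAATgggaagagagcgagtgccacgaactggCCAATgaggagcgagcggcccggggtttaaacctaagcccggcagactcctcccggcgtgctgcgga
Spc25, chr2:69206214-69206463, minus strand: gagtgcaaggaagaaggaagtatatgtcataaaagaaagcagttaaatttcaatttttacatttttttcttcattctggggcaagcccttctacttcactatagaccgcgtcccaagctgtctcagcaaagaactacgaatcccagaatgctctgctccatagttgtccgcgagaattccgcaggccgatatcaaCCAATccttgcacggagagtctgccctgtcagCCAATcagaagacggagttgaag
Plk1, chr7:122159185-122159434, plus strand: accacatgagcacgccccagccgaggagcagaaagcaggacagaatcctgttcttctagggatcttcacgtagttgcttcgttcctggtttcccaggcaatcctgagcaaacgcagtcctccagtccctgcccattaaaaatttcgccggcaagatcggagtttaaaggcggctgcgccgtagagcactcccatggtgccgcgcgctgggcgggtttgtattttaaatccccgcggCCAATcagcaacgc
Ube2c, chr2:164769679-164769928, plus strand: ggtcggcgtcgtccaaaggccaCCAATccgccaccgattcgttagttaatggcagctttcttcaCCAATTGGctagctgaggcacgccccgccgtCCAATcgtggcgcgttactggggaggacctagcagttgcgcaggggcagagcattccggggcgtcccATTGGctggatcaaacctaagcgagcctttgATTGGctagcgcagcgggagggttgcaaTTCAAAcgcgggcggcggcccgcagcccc
Ccnb1 and Spc25 have 2 CCAAT matches each, Plk1 has 1 and Ube2c has 6. Over the full RefSeq windows of 300 bases, which add 50 bases after the start, Spc25 and Plk1 also have 1 TTTGAA each, and Ccnb1 has 0. CCAAT on either strand was present in 41.1% of the windows of all 27025 genes, in 43.5% of the 4989 tested genes with a window and in 44.7% of the 47 matched genes of the 68 that were lower. TTTGAA was present in 20.2%, 14.7% and 19.1%. A match is a description of these letters and not a binding site, and 0 matches says only that the letters are not in the window.

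Genes higher in cluster 14 than in cluster 6 were led by Gm21269, with 122 CPM against 40.4 and a log2 ratio of 1.59 (1.43 to 1.76). Next was Ccp110, which encodes a cap protein of centrioles, with 193 CPM against 76.9 and 1.33 (1.20 to 1.46). Piwil1, the PIWI protein that binds pachytene piRNAs, had 242 CPM against 103, and 1.23 (1.12 to 1.34). Tex101, a membrane-anchored glycoprotein of germ cells, had 203 CPM against 89.0, and 1.19. Hmgb2, a DNA-bending chromatin protein, had 356 CPM against 160, and 1.16. Baz1a, a subunit of ISWI chromatin remodellers, had 238 CPM against 115, and 1.05.

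Of the genes just named, 5 were lower in cluster 14 than in diplotene cluster 3, where Piwil1 was at 326 CPM, Ccp110 at 236, Tex101 at 287, Hmgb2 at 448 and Baz1a at 292. The first-named gene, Gm21269, and AC149090.1, which had 172 CPM against 72.7, are poorly characterised and may share reads with similar copies.

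Against MI cluster 8, cluster 14 differed in more genes and mostly in 1 direction. Of 6405 genes, 860 (13.4%) were at least 2-fold higher in cluster 14 and 64 (0.999%) lower. With median-of-ratios scaling, a shift of -0.27, the counts become 390 higher and 207 lower, or 68.3% higher among those called in place of 93.1%. Malat1, an abundant nuclear long noncoding RNA, had the highest ratio among genes of at least 100 CPM, with 258 CPM in cluster 14 against 54.5, and 2.25 (2.12 to 2.37). Crybg3 had 307 CPM against 78.5, and 1.97 (1.86 to 2.08). Hnrnpa3, an RNA-binding protein, had 138 against 36.7, and Smarca5, the ATPase of ISWI remodellers, had 181 against 50.6. Fsip2, a protein of the fibrous sheath of the sperm tail, had 239 against 71.1, and Dnah7c, of the axonemal dynein heavy chains, had 108 against 33.7.

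The genes lower than in cluster 8 were again led by A930018P22Rik, with a log2 ratio of -2.88 (-3.12 to -2.65), and Ccnb1, with -1.82 (-2.04 to -1.62). Insl6, an insulin-like peptide of germ cells, had 383 CPM in cluster 14 against 1035, and -1.43 (-1.50 to -1.37). Ccna1 had -1.20 (-1.29 to -1.10), Atoh8, a basic helix-loop-helix transcription factor, had -1.19, and Smim24, a small membrane protein, had -1.02. Insl6 and Smim24 set the clusters apart differently from the division genes. Insl6 was at 391 CPM in diplotene cluster 3 and 486 in cluster 6, but at 900 in diplotene cluster 9, and Smim24 was at 938, 832 and 2262. For these genes cluster 14 was close to clusters 3 and 6, and clusters 8 and 9 were both high.

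**Figure D3:**
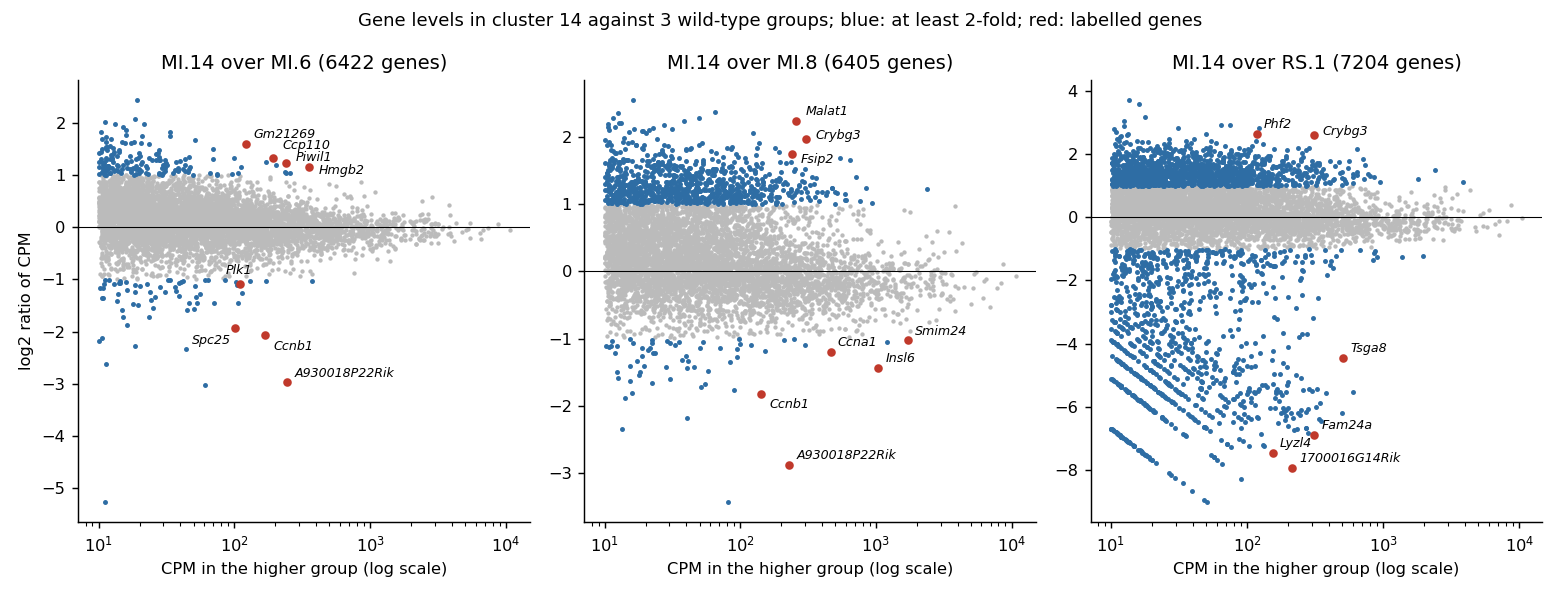
Each point is a gene, with its level in the higher group (x axis, CPM, log scale) and the log2 ratio of cluster 14 to MI.6, MI.8 or RS.1 (y axes, with a different range in each panel), blue where the ratio is at least 2-fold and red where a gene is labelled. A930018P22Rik and Ccnb1 lie lowest among the labelled genes against both MI clusters, at -2.97 and -2.07 for MI.6, and the panel for RS.1 reaches below -6 for genes such as Fam24a.

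The 5 groups compared differed in how cluster 14 ratios moved with the genomic span of genes, from start to end with introns. Genes at least 2-fold higher in cluster 14 than in cluster 8 had a median span of 57.8 kb, against 20.6 kb for all genes tested and 8.04 kb for the lower genes. Against diplotene cluster 9 the medians were 52.2 kb for the 732 higher genes (11.2% of 6541) and 9.22 kb for the 180 lower ones (2.75%), counts that median-of-ratios scaling turns into 484 and 290. Against RS.1 they were 41.0 kb and 11.9 kb. Genes of 100 kb or more had a median log2 ratio of 0.71 against cluster 8, 0.70 against diplotene cluster 9 and 0.72 against RS.1, but 0.20 against cluster 6 and -0.01 against diplotene cluster 3.

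The trend was thus weaker, but present, against cluster 6, where the medians ran from 0.04 for genes under 3 kb to 0.20 and the median spans were 29.6 kb for higher and 11.5 kb for lower genes. Against diplotene cluster 3 the higher and lower genes had like median spans of 15.4 and 15.7 kb. Of the 860 genes higher than in cluster 8, 835 were measured in both diplotene clusters. Their median log2 ratio of cluster 3 to cluster 9 was 1.01, against 0.18 for all 6541 genes. Of these 835 genes, 51.3% were at least 2-fold higher in cluster 3, against 9.52% of all genes. Most of the genes that differed between the MI clusters thus differed in the same direction between the diplotene clusters. The upper quartile of UMIs per cell was 16935 in cluster 8, 15674 in cluster 6 and 23692 in cluster 9. Thinning every cell to 3000 UMIs left the 860 higher genes within 1.5 times of that count. Thinning keeps the make-up of each cell, so it cannot show whether deeper cells have a part in the pattern, which was not tested.

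**Figure D4:**
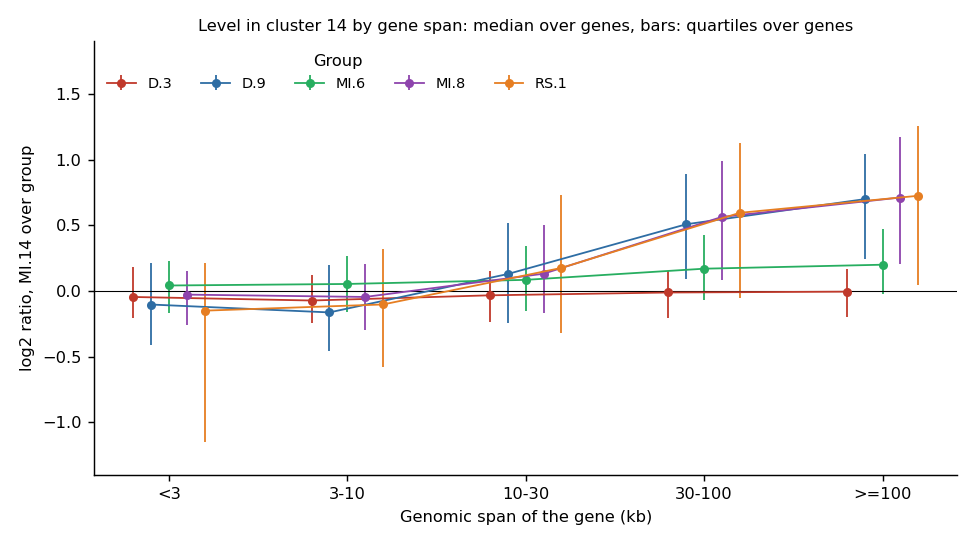
Median log2 ratio of cluster 14 to each of 5 groups (y axis) for genes binned by genomic span in kb (x axis), with quartiles over genes as bars. Genes of 100 kb or more stand at 0.71 against MI.8, 0.70 against D.9 and 0.72 against RS.1, while the lines for MI.6 and D.3 reach 0.20 and -0.01.

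Among 34 cyclins, cyclin-dependent kinases and regulators, 20 were tested against cluster 6, and 4 were at least 2-fold lower in cluster 14, against 1.06% of all genes: Ccnb1, Ccne1, Cdk1 and the phosphatase Cdc25a. Cdc25a was at 19.5 CPM in cluster 14 and 53.3 in cluster 6. Of the 20, only Ccne2, a cyclin of the G1 to S transition, was at least 2-fold higher (2.51% of all genes), with 19.1 CPM against 3.50. The median log2 ratio of this list was 0.00, against 0.11 over all genes. Ccnb2, the other B-type cyclin, behaved unlike Ccnb1. It was at 175 CPM in cluster 14, close to the 159 of diplotene cluster 3, and at 314 in cluster 6.

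Division kinases and passenger proteins were at levels closer to those of cluster 6. Of 17 tested against cluster 6, Plk1 alone was 2-fold lower and 0 were 2-fold higher, counts near the shares of 1.06% and 2.51% over all genes. Their median was 0.02. Haspin, the kinase that marks centromeric histone H3, was at 401 CPM in cluster 14, 412 in cluster 6 and 230 in cluster 8. Tpx2, the spindle protein that activates Aurora A, was at 114 CPM in cluster 14, 113 in cluster 6 and 73.1 in diplotene cluster 3. On the log2 scale Tpx2 in cluster 14 had thus gone 102% of the way from diplotene cluster 3 to cluster 6, and Aurka 39.6%. Nek2, a centrosome kinase, was at 128 CPM, against 122 in cluster 6 and 64.2 in cluster 8.

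Of 19 APC/C, securin, separase and cohesin protection genes, Ube2c alone was 2-fold lower than in cluster 6, which at 1.06% of all genes is near the background. Pttg1, which encodes securin, was at 436 CPM in cluster 14 and 463 in cluster 6, and Sgo2a, the guardian of centromeric cohesion, at 87.4 and 90.6. Fbxo43, an inhibitor of the APC/C that meiosis needs, was at 54.7 in cluster 14, 38.1 in cluster 6 and 26.9 in cluster 8. Among 19 kinetochore and checkpoint genes, Spc25 was 2-fold lower and Mad2l1, a checkpoint protein, 2-fold higher, again near the shares of 1.06% and 2.51%. Cenpe, a kinetochore motor, stood at 42.1 CPM in cluster 14, against 20.1 in diplotene cluster 3 and 83.1 in cluster 6.

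Most spindle and chromosome compaction genes had ratios near 0 against cluster 6 and above 0 against cluster 8. The median log2 ratio of 27 spindle, midzone and cytokinesis genes was -0.02 against cluster 6 and 0.78 against cluster 8, where the median of all genes was 0.18. The summed level of the spindle list, which its most abundant members set, ran the other way, with 8683 CPM in cluster 14 and 9558 in cluster 8. Prc1, which bundles midzone microtubules, was at 251 CPM in cluster 14, 187 in cluster 6 and 87.0 in cluster 8. For 8 condensin and compaction genes the medians were -0.09 and 0.92. Top2a, the topoisomerase of chromosome condensation, was at 100.3 CPM in cluster 14, 108 in cluster 6 and 48.9 in cluster 8, and Smc2, a condensin subunit, at 104, 150 and 60.4.

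Lists of meiotic prophase genes differed among themselves. The 16 synaptonemal complex and cohesin genes had a median log2 ratio of 0.26 against cluster 6 and 15 genes had 0.87 against cluster 8, where all genes had 0.11 and 0.18. The 11 recombination and crossover genes had 0.11 and 0.13, and the 31 pachytene and diplotene genes 0.07 and 0.26. The 9 leptotene and zygotene markers had 0.65 and 0.82. Sycp1, the transverse filament of the complex, was at 96.4 CPM in diplotene cluster 3, 73.8 in cluster 14 and 39.3 in cluster 6. Sycp2, of the lateral element, was at 324, 273 and 166 in the same order, while Sycp3, its partner in that element, was at 323, 298 and 267. Of 31 pachytene and diplotene genes, 4 were at least 2-fold higher than in cluster 6, against 2.51% of all genes: Piwil1, the Tudor domain genes Tdrd1 and Tdrd5 of the piRNA pathway, and Hist1h1t, the testis linker histone. Tdrd1 was at 150 CPM in diplotene cluster 3, 96.8 in cluster 14 and 48.0 in cluster 6. Other genes of this list hardly differed, among them Ldhc, the germ-cell lactate dehydrogenase, with 8704 CPM in cluster 14 and 8313 in cluster 6.

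Because cluster 14 lay between diplotene cluster 3 and MI cluster 6 on pseudotime, its levels were also set against those ends. The comparison was chosen after the pseudotime was seen. Against diplotene cluster 3, 76 of 6597 genes (1.15%) were at least 2-fold higher in cluster 14 and 44 (0.667%) lower, with 90% of ratios within 1.08 log2 units. Median-of-ratios scaling would raise the share of higher genes among those called from 63.3% to 76.0%. Map4k1, a kinase of the MAP kinase cascade, had the largest ratio at 100 CPM or more, with 200 CPM against 71.7 and 1.48 (1.33 to 1.63). Tekt4, a tektin of the sperm flagellum, had 159 CPM against 68.7, and 1.21 (1.05 to 1.37). Kbtbd11 had 1.11 and Trim54 had 1.03. Of the genes of at least 100 CPM, 0 were 2-fold lower, and the lowest ratio was that of Sumo2, a small ubiquitin-like modifier, with 274 CPM against 476 and -0.79 (-0.88 to -0.70).

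Genes that differed by at least 2-fold between diplotene cluster 3 and MI cluster 6, at 20 CPM or more, were chosen from those clusters alone. Of 213 genes higher in cluster 6, 211 (99.1%) had an intermediate level in cluster 14, and of 374 lower genes, 372 (99.5%) did. The genes were chosen to be far apart at the ends, and the clusters were made from the same genes. These shares are therefore a description only, and no other cluster was placed on this scale. The median position of cluster 14 on the log2 scale, where 0 is diplotene cluster 3 and 1 is cluster 6, was 0.53 (quartiles over genes 0.45 and 0.59) for the genes higher in cluster 6. It was 0.36 (0.27 and 0.45) for the genes lower in cluster 6. On this log2 scale, genes lower in cluster 6 stood nearer to their diplotene level than genes higher in cluster 6 did. That order depends on the scale. The sums of UMIs per cell given below are linear and weigh abundant genes more, and they show the opposite order. Median-of-ratios scaling would give median positions of 0.49 and 0.35 on the log2 scale. Plk1 was at 58.6% of the way, Ccnb1 at 50.6%, Ube2c at 48.6%, A930018P22Rik at 47.8%, Cdk1 at 45.9%, Spc25 at 40.3%, Ccna1 at 39.0% and Ccnb2 at 14.2%.

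Sums over these genes were also taken cell by cell. In cells thinned to 3000 UMIs, the 213 genes together had a median of 27 UMIs in diplotene cluster 3, 44 in cluster 14 (SD 9.21 over cells) and 73 in cluster 6. Of the cluster 14 cells, 99.2% exceeded the diplotene median and 0.531% reached the cluster 6 median. For the 374 genes lower in cluster 6 the medians were 84, 60 (SD 12.1) and 33, and 96.6% of cluster 14 cells lay below the diplotene median while 0 reached that of cluster 6. The ranges overlapped at both ends. In the first sum the 95th percentile was 61.2 in cluster 14, above the 5th percentile of 52 in cluster 6. In the second sum the 5th percentile was 42.8 in cluster 14, below the 95th percentile of 54 in cluster 6. The 95th percentile of the first sum was 40 in diplotene cluster 3 and the lower quartile in cluster 14 was 39, and the 5th percentile of the second sum was 62 in diplotene cluster 3, above the cluster 14 median of 60. The variance over the mean of the first sum was 1.87 in cluster 14, 1.87 in diplotene cluster 3 and 2.36 in cluster 6, but 6.02 in diplotene cluster 9 and 4.70 in cluster 8.

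**Figure D5:**
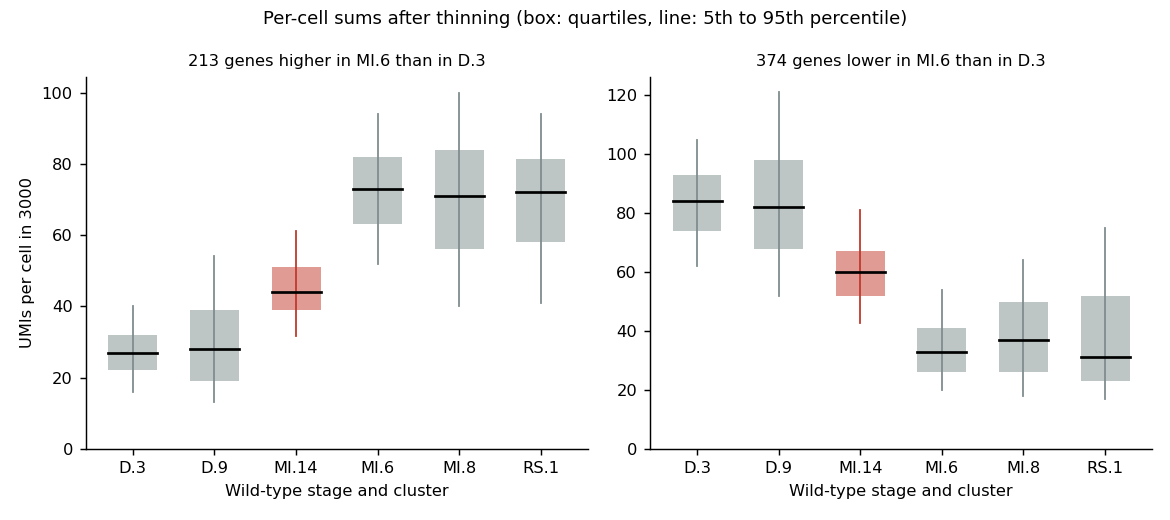
UMIs per thinned cell (y axis, of 3000) summed over the 213 genes higher (left) and the 374 genes lower (right) in MI.6 than in D.3, by cluster, with boxes for quartiles and lines from the 5th to the 95th percentile of cells. The box of cluster 14 (red) lies between and apart from those of D.3 and MI.6 in both panels, with medians of 44 and 60 UMIs.

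Doublet scores are given beside these levels, and their part in them was not tested beyond the alternative below. The caller, Scrublet, called 0 of the 12639 wild-type barcodes and is read as not having worked. Its median score was 0.0594 in cluster 14, 0.0721 in diplotene cluster 3 and 0.0275 in cluster 6, and the 95th percentile was 0.230, 0.191 and 0.0985. Median UMIs per cell were 12941 in cluster 14, between 11558.5 in diplotene cluster 3 and 14074.5 in cluster 6. Without the tenth of each cluster's cells with the highest scores, the median positions were 0.52 and 0.36. The same step lowered Ccnb1 in cluster 14 from 39.7 to 32.6 CPM.

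Levels also differed along pseudotime within cluster 14. Its 377 cells were split by score into an early set of 126, a middle set of 126 and a late set of 125, with medians of 12595, 12837 and 13433 UMIs. A930018P22Rik was at 12.5 CPM in the early set, 27.6 in the middle and 51.5 in the late set, a log2 ratio of late to early of 2.01 (1.35 to 2.80). Ccnb1 was at 20.9, 41.0 and 55.9 CPM, with a late-to-early ratio of 1.41 in log2 units (0.85 to 2.02). Spc25 had a ratio of 0.65 (0.05 to 1.30), Plk1 0.53 (0.09 to 0.99), Cdk1 0.37 (0.03 to 0.71) and Ccna1 0.30 (0.08 to 0.52). For Cdc20, with 0.13 (-0.10 to 0.37), and Ube2c, with 0.12 (-0.33 to 0.58), the interval includes 0.

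Map4k1 and Tekt4, which led the genes higher than in diplotene cluster 3, were also higher in the later cells. Map4k1 was at 162 CPM in the early, 190 in the middle and 244 in the late cells, and Tekt4 at 123, 165 and 187. Tpx2, also above diplotene cluster 3, was not, with 106, 131 and 105 CPM. Piwil1 and Ccp110 went the other way, at 287, 227 and 214 CPM and at 229, 183 and 169. Of 1927 genes of at least 100 CPM, 0 differed by 2-fold between late and early cells. The genes with the largest differences were Prss40, a testis serine protease, with 72.7, 102 and 114 CPM, and Drc1, of the axonemal dynein regulatory complex, with 103, 85.1 and 61.9. The score was made from expression, so these trends describe the authors' order and are not independent of it.

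Of 1828 genes of at least 100 CPM there, 89 had their highest level among the 19 clusters in cluster 14, and the largest fold over the next cluster was 1.16. Among 3869 genes of that level in any cluster, the highest level was in cluster 14 for 89, in diplotene cluster 3 for 27, in diplotene cluster 9 for 104, in RS.1 for 91, in cluster 6 for 241 and in cluster 8 for 283. That gene was Psme4, the activator PA200 of the spermatoproteasome, with 213 CPM in cluster 14, 182 in cluster 6 and 173 in diplotene cluster 3. It was followed by Topors, a ubiquitin and SUMO ligase, with 130 CPM and a fold of 1.15, and by Dnah12, an axonemal dynein heavy chain, with 197 CPM and 1.14. At that abundance, 0 genes were even 1.5-fold above every other cluster. Within the set of clusters 14, 6, 8 and RS.1, 9 genes were at least 2-fold above the highest of the other 3, with Ccp110 first at 1.33 log2 units, then AC149090.1 at 1.21, and Hmgb2 and Piwil1 at 1.11 each.

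Against RS.1, cluster 14 differed in 1343 higher genes (18.6% of 7204) and 982 lower genes (13.6%). With median-of-ratios scaling, a shift of -0.20, the counts become 939 higher and 1145 lower. The largest differences were spermatid genes that were near 0 in cluster 14. 1700016G14Rik had 4 UMIs in cluster 14 and 1347 in RS.1, a log2 ratio of -7.94 (-9.98 to -6.75). Lyzl4, a lysozyme-like protein of the acrosome, had 4 UMIs against 969, and Fam24a had 13 against 1951. Tsga8, an X-linked spermatid gene, was at 23.0 CPM in cluster 14 and 506 in RS.1.

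Of 31 acrosome genes tested against RS.1, 18 were at least 2-fold lower in cluster 14, against 13.6% of all genes. Only 14 of the list's genes reached 10 CPM in cluster 14, so the others were compared because of their level in RS.1 and the count is a description only. Acrv1, a protein of the acrosomal matrix, was at 1.36 CPM in cluster 14 and 117 in RS.1, and Spaca1, of the acrosomal membrane, at 2.92 and 199. An Acrv1 UMI was found in 1.86% of cluster 14 cells (0.750 to 3.79) and 80.2% of RS.1 cells. The share was 1.83% in diplotene cluster 3 and 2.19% in cluster 6, close to that of cluster 14. In the 122 cells before pachytene it was 0.820% (0.0208 to 4.48), from 1 cell. Those cells had a median of 2227 UMIs against 12941 in cluster 14. After thinning the share was 0.796% in cluster 14 and 0 in the 35 such cells left, too few to set a background. The 19 round spermatid markers, of which 0 reached 10 CPM in cluster 14, summed to 41.1 CPM there (35.7 to 47.0), 44.2 in diplotene cluster 3, 33.3 in diplotene cluster 9 (30.6 to 36.2), 39.4 in cluster 6 and 1806 in RS.1. The sum in cluster 14 was thus within the range of the diplotene and MI clusters.

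Flagellar genes differed from RS.1 in both directions, at shares near those of all genes (18.6% higher and 13.6% lower). Of 45 tested, 8 were at least 2-fold higher in cluster 14, among them Fsip2 with 239 CPM against 87.1 and Dnah8, a dynein heavy chain, with 639 against 143. Another 9 were lower, among them Odf1, of the outer dense fibres, with 1.17 against 43.0, and Tekt4 with 159 against 413. Of 15 round spermatid transcription regulators, 2 were at least 2-fold higher (Rfx4 and Kdm3a) and 5 lower, against 18.6% and 13.6% of all genes. Fhl5, a coactivator of CREM, was at 1.56 CPM against 44.7 and Spz1 at 12.8 against 75.3. Only 10 of these regulators and 38 of the flagellar genes reached 10 CPM in cluster 14. The others were compared because of their level in RS.1, so the counts of both lists are descriptions only. Genes of cluster 14 that were higher than in RS.1 were led by Gm3448 with a log2 ratio of 2.85, Phf2, a histone demethylase, with 2.66, and Crybg3 with 2.60. Gm3448 may share reads with similar copies.

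The X chromosome took its lowest share of UMIs in cluster 14, close to that of diplotene clusters 1 and 3. X-linked genes took 0.0105% of its UMIs (0.00963 to 0.0114; 539 UMIs), the lowest share of the 19 clusters. The share was 0.0117% in diplotene cluster 3, 0.0166% in cluster 6, 0.0183% in cluster 8 and 0.288% in RS.1. Its counting interval overlaps those of diplotene cluster 3 (0.0110 to 0.0125), diplotene cluster 1 (0.0103 to 0.0119) and late pachytene cluster 5 (0.0102 to 0.0147) and not that of cluster 6 (0.0159 to 0.0173). In male meiosis the X and Y are silenced from pachytene on, and some of their genes are expressed again in spermatids. Y-linked genes had 19 UMIs in cluster 14, a share of 0.000370%, and 3 other clusters had lower shares. The 22 post-meiotic X- and Y-linked genes summed to 33.9 CPM in cluster 14, 35.0 in diplotene cluster 3, 57.0 in cluster 6 and 1024 in RS.1, and 10 of them were at 0 in cluster 14. Slxl1, an X-linked spermatid gene of a multicopy family, had 13 UMIs in cluster 14 and 1698 in RS.1, and its count may be split between copies.

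Markers of somatic testis cells were at or near 0 in cluster 14. The 15 Sertoli cell markers summed to 3.50 CPM with 11 at 0, the 9 Leydig cell markers to 1.95 CPM, the 10 peritubular and endothelial markers to 3.70 and the 10 macrophage markers to 1.56, and the red cell markers were at 0. Spermatogonium markers summed to 7.40 CPM, against 1932 in cells before pachytene. The 12 elongating spermatid markers summed to 261 CPM in cluster 14, 261 in diplotene cluster 3, 259 in cluster 6 and 1465 in RS.1. Prm1, the sperm protamine, was at 91.7 CPM in cluster 14, 89.0 in diplotene cluster 3, 84.9 in cluster 6, 110 in RS.1 and 210 in cells before pachytene, and is not read as expression in cluster 14.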

How the data were processed

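The deposited matrix of the wild-type library holds whole-number counts of UMIs per gene and cell barcode, made with Cell Ranger 3.1.0 and the mm10 genome, per the submitters' processing notes. Seurat 3.2.0 is also listed there. The settings of alignment, clustering and pseudotime were not given in the sources used here. Per the file headers, the deposited table of cells holds each cell's total UMI count, its percent of mitochondrial and ribosomal UMIs, its cluster number, its stage and its pseudotime score. The merged matrix, UMAP coordinates in the deposited table and the matrix of the library labelled Zfp541-/- were used for no gene level. The barcodes of that library served only to count shared ones. The summed counts of all 8420 annotated wild-type cells equalled the deposited totals.

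UMIs were summed per gene and cluster and scaled to CPM. Log2 ratios used sums with 0.5 counts added before scaling. Cluster totals differ, so the ratios of genes with few counts are drawn towards the ratio of the totals and not towards 0. The total was 5136482 UMIs in cluster 14 and 13141373 in cluster 6. A gene at 0 CPM in both has a log2 ratio of 1.355. A gene was compared where either group reached 10 CPM, and 2-fold was the threshold. Intervals are exact Poisson for sums, exact Clopper-Pearson for shares and exact conditional binomial for ratios, all at 95% and for counting error only. The interval and the counts of 2-fold genes were tested on simulated counts. Cells were thinned to 3000 UMIs with a fixed seed where shares of cells were compared. For each comparison with clusters 6, 8 and RS.1, the text names genes from the 10 highest and 10 lowest log2 ratios among genes of at least 100 CPM, list members of at least 20 CPM, and the 10 genes with the highest level relative to the other groups or clusters.

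The cluster, its markers and the gene lists were chosen with earlier results of these data known. The comparisons with diplotene clusters 3 and 9, the position between clusters and the alternatives on Scrublet scores and shared barcodes were added after the data were seen, and so were the older symbols by which 4 list genes were matched. Genes were placed with the GENCODE M21 annotation (31011 of 31053 identifiers matched), and promoter windows came from RefSeq. Doublets were scored with Scrublet in scanpy 1.11.5, which called 0 barcodes, and no cell was removed. Python 3.11.15 with numpy 2.4.6, scipy 1.17.1 and pandas 2.3.3 was used. Alternatives covered scaling, pseudocount, filters, thinning, weighting of cells, depth, mitochondrial share, doublet scores and shared barcodes.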

Additional observations from a re-analysis of the deposited data

How the results depend on the processing

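Of 1089 recomputed log2 ratios of named genes 972 stayed within their counting interval, and of 1176 recomputed list medians 1140 stayed within the quartiles of their list. Of 110 recomputed counts of 2-fold genes 76 stayed within 1.5 times of the reported count. None of these values changed direction from a 2-fold difference. The counts of higher and lower genes were 2805 and 963 against cluster 6 with no filter on low values, 3754 and 1045 against cluster 8, 3518 and 5347 against RS.1, 1859 and 2621 against diplotene cluster 3, and 2952 and 1691 against diplotene cluster 9. With a filter of 50 CPM they were 19 and 21, 331 and 24, 516 and 309, 11 and 0, and 320 and 61 in the same order. The filter changes how many genes are tested. Without it, genes with few counts enter, whose ratios are drawn towards the ratio of the cluster totals. With median-of-ratios scaling the counts were 89 and 108 against cluster 6 and 390 and 207 against cluster 8. They were 484 and 290 against diplotene cluster 9, with 19 lower against diplotene cluster 3. With cells thinned to 3000 UMIs they were 320 and 134 against cluster 6 and 148 and 191 against diplotene cluster 3, with 127 lower against cluster 8 and 294 lower against diplotene cluster 9. A pseudocount of 5 gave 24 lower against diplotene cluster 3. In cluster 14, Aurka was at 236 CPM after thinning, 204 with median-of-ratios scaling and 234 with totals that leave out the 10 most abundant genes. Ccna1 was at 188 and 216 and Cdc20 at 161 and 185 under those scalings, Ccnb1 at 50.4 and Plk1 at 59.2 after thinning, and Ccnb1 at 32.6 without the highest doublet scores. The median pseudotime was -4950 without the cells of fewest UMIs, 25% of each cluster. The cause was not tested for any of these changes. Leaving out cells above 5% mitochondrial UMIs removed 0 cells, and the planned removal of called doublets had 0 cells to remove. No paired analysis was possible because there is 1 library per genotype and no replicate. Genes with few UMIs in cluster 14 limit the ratios, as the 4 UMIs of 1700016G14Rik show.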

Other observations

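Translation and heat shock genes of cluster 14 were nearer to diplotene cluster 3 than to MI cluster 8, as genes in general were. Over all genes, 90% of log2 ratios spanned 1.08 units against diplotene cluster 3 and 1.93 against cluster 8. Among 26 translation control genes tested against cluster 8, 6 were at least 2-fold higher in cluster 14 and 0 lower, with a median log2 ratio of 0.53, against 0.18 over all genes and 13.4% of genes higher. Pabpc1, a poly(A)-binding protein, was at 941 CPM in cluster 14, 951 in diplotene cluster 3 and 466 in cluster 8, and Pabpc6, its testis relative, at 474, 389 and 201. Of 15 heat shock genes tested against cluster 8, 1 was at least 2-fold higher, against 13.4% of all genes, and 0 lower. Their median log2 ratio was 0.43. Hsp90aa1, a chaperone abundant in spermatocytes, was at 3843 CPM in cluster 14, 4357 in diplotene cluster 3, 2873 in cluster 6 and 1966 in cluster 8. Dazl, an RNA-binding protein of germ cells, was at 11.3 CPM in cluster 14, 14.7 in diplotene cluster 3 and 3.42 in cluster 6.

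Mitochondrially encoded genes summed to 8826 CPM in cluster 14, between the 10096 of diplotene cluster 3 and the 7468 of cluster 6. Apoptosis and immediate early genes were low. The 22 genes of p53 response and apoptosis summed to 175 CPM in cluster 14, with 10 at 0, and the 12 immediate early genes to 21.2 CPM, with 6 at 0. Their sums in diplotene cluster 3 were 191 and 27.9 CPM.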
